A study of Mus musculus with 6 samples.

Results

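Matricellular proteins are secreted into the extracellular matrix but act mainly as signals to cells and not as structural fibres. The mRNAs of 10 such genes were followed in mouse embryonic fibroblasts (MEFs) with and without MCM8: the CCN family genes Ccn1, Ccn2, Ccn3, Ccn4 and Ccn5, the thrombospondins Thbs1 and Thbs2, periostin (Postn), SPARC (Sparc) and tenascin-C (Tnc). They were taken by gene symbol from the 55565 genes listed, each symbol matched 1 row, and all 10 were among the 26898 genes tested. MCM8 is a helicase of the minichromosome maintenance family that takes part in DNA repair, and the design asked how its loss changes gene expression in fibroblasts. RNA was sequenced from 3 WT libraries (Mcm8+/+) and 3 KO libraries (Mcm8-/-), all untreated. Both genotypes came from E13.5 embryos of crosses between heterozygous parents of mixed C57BL/6J and ICR stock, and the KO allele lacked exon 7 through CRISPR-Cas9 deletion, which shifts the reading frame. Trunk cells without head, tail, limbs, heart and liver were grown in DMEM with serum, and WT and KO cells alike were immortalized with SV40gp6 lentivirus and selected with puromycin. The libraries are called biological repeats, but it is not stated whether they came from separate embryos or cultures. The p-values rest on the spread between libraries, in the main test taken from a trend over all genes. That spread may be technical.

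CCN proteins, thrombospondins, periostin, SPARC and tenascin-C bind integrins, heparan sulfate proteoglycans, growth factors and matrix fibres, and their levels rise where tissue is growing, under tension or healing. In fibroblasts Ccn1 and Ccn2 are textbook targets of the transcriptional co-activators YAP and TAZ with TEAD factors, and also respond to serum, to MRTF with SRF and to TGF-beta, while Ccn4 was named as a gene induced by Wnt signalling. The modular CCN proteins share an insulin-like growth factor binding domain, a von Willebrand type C domain and a thrombospondin type 1 repeat, and Ccn5 alone lacks the cysteine knot at the C terminus.

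Depth was 12722979 to 19019695 counts in WT libraries and 15954793 to 21022755 in KO libraries. Mcm8 itself was read 176 to 238 times in WT and 66 to 89 times in KO libraries, a log2 fold change of -1.75. WT1 stood apart: counts of WT1 against WT2 or WT3 differed by a chi-square of 14.3 and 13.3 per degree of freedom, against 4.40 for WT2 with WT3 and from 2.63 to 3.05 for pairs of KO libraries. All 9 fibroblast markers examined were above 1 CPM in every library, and their summed level was 19693 to 21649 CPM in WT and 20574 to 21210 CPM in KO.

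The 10 genes did not move as a block. At an adjusted p-value below 0.05 (quasi-likelihood test of edgeR, adjusted by Benjamini-Hochberg over all genes tested), 3 were higher in KO (Ccn3, Ccn5 and Tnc), 4 were lower (Ccn4, Ccn2, Postn and Thbs2) and 3 did not pass (Ccn1, Thbs1 and Sparc). Of all genes tested, 4.97% were higher and 4.03% lower by the same rule. With a change of more than 2-fold required as well, which defined a DEG, Ccn3 and Ccn5 were higher and none of the 10 was lower, against 1.75% and 0.665% of all genes. CPM values of the genotypes did not overlap for 8 of the 10 genes, 4 higher and 4 lower. Over all genes the shares without overlap were 11.6% higher and 10.1% lower. These shares include weak genes, and none was taken over genes of like abundance, so how unusual 8 of 10 is was not tested.

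The median log2 fold change of the 10 genes was -0.04, against 0.01 over all genes tested, with rises and falls on both sides of it. The median size of the change, whatever its sign, was 0.41 for the 10 genes and 0.11 over the 9529 genes that were at least as abundant as the lowest of them. In that more abundant set 8.46% of genes were higher and 8.79% lower. Among the 2473 genes with a mean of at least 100 CPM, 17.7% passed the test in either direction, and 5 of the 8 matricellular genes at that level did so. The 10 genes were chosen with earlier results of these data known, so these comparisons are a description. Together the 10 genes made up 0.699%, 0.751% and 0.746% of the counts of the WT libraries and 0.699%, 0.704% and 0.710% of those of the KO libraries, with WT1 as low as KO1. In bulk RNA, fewer cells of a type and less RNA per cell cannot be told apart.

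**Figure D1:**
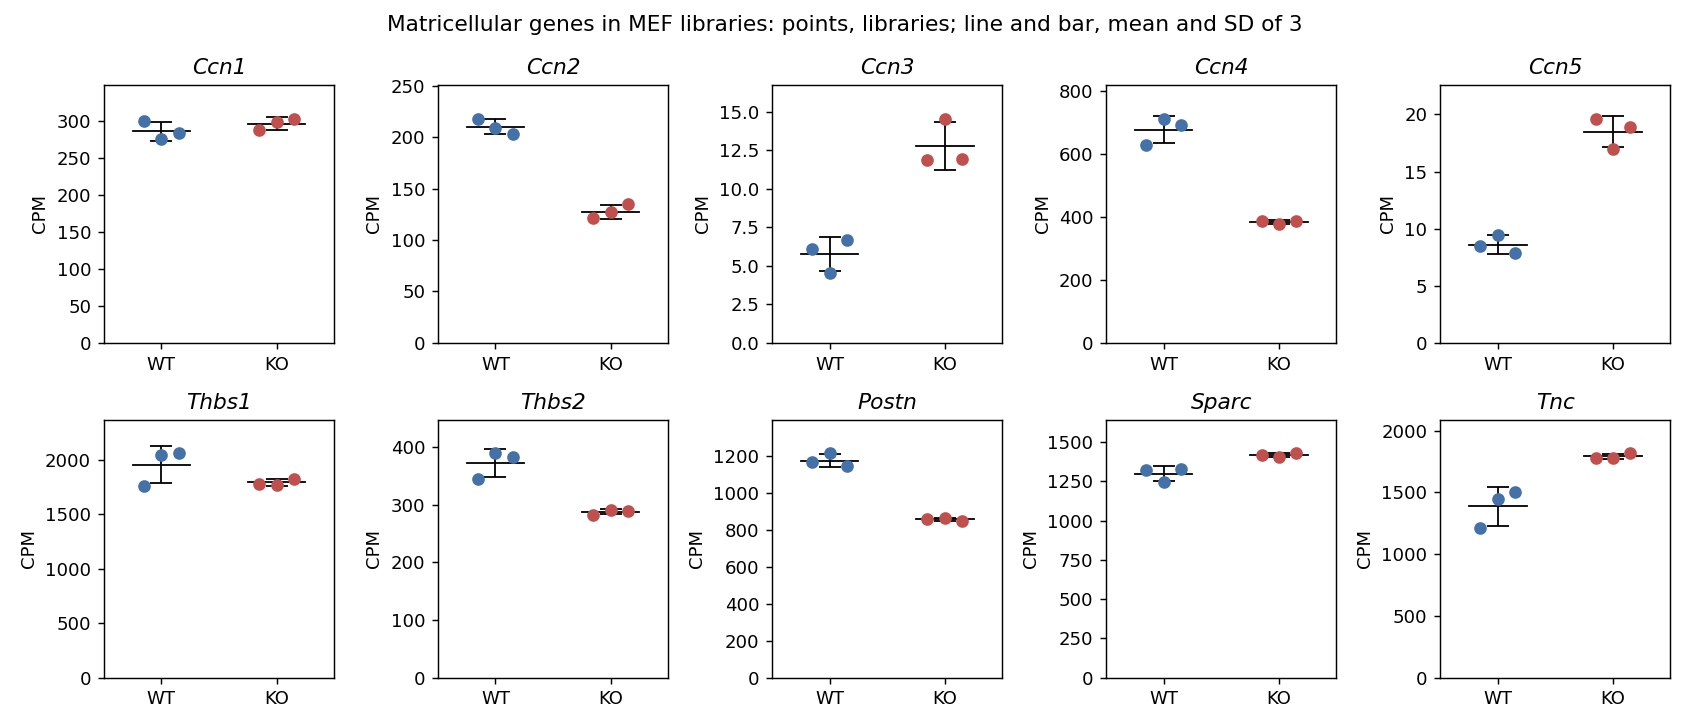
Level of the 10 matricellular genes in CPM (counts scaled to the library total and TMM-normalized, linear axes from 0) in each WT and KO library, with the line and bar giving the mean and SD of 3 libraries. Ccn2, Ccn4, Thbs2 and Postn lie lower in all KO libraries, Ccn3, Ccn5, Sparc and Tnc higher, and Ccn1 and Thbs1 overlap.

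Levels of different genes were compared by FPKM, which scales counts to gene length. The order of the 10 genes was the same in both genotypes, from Sparc through Thbs1, Tnc, Ccn1, Postn, Ccn4, Ccn2 and Thbs2 down to Ccn5 and Ccn3. Mean FPKM in WT was highest for Sparc, at 341 ± 11.7, and in KO at 372 ± 2.90 (SD, n = 3). Ccn3 was the lowest, at 1.59 to 2.30 FPKM in WT and 4.10 to 5.05 FPKM in KO libraries. In WT the libraries of Sparc overlapped those of Thbs1, and those of Ccn1 overlapped those of Postn, so these neighbours were not set apart. No neighbours overlapped in KO, where Ccn1 lay at 142 to 149.7 FPKM and Postn at 97.2 to 99.3 FPKM.

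Ccn1, also known as Cyr61, encodes a secreted integrin ligand that promotes cell adhesion and angiogenesis (ENSMUSG00000028195, chromosome 3, 145352731 to 145355736, minus strand, in the GRCm39 coordinates of the deposited files). Its level, with libraries throughout in the order 1 to 3, was 300.0, 276 and 284 CPM in WT and 288, 299 and 304 CPM in KO. The genotypes overlapped. The log2 fold change of 0.05 (SE 0.07, adjusted p = 0.697, edgeR with Benjamini-Hochberg adjustment) had a 95% interval from -0.08 to 0.19, that is from 0.945 to 1.14 times the WT level, so a change larger than this was not seen. The log2 change without each library in turn lay between 0.03 and 0.09.

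Ccn2, also known as connective tissue growth factor, is induced by TGF-beta and by YAP and promotes matrix deposition (ENSMUSG00000019997, chromosome 10, 24471340 to 24474581, plus strand). The WT libraries held 218, 209 and 203 CPM and the KO libraries 121, 127 and 135 CPM. Every KO value lay well below every WT value, and the KO mean was 60.7% of the WT mean. The log2 fold change was -0.72 (SE 0.07, 95% interval -0.86 to -0.58, adjusted p = 1.79e-21, edgeR with Benjamini-Hochberg adjustment), and it stayed between -0.76 and -0.68 without each library in turn. Ccn1 and Ccn2, which are often read together as reporters of YAP activity, thus parted in these cells. The FPKM ratio of Ccn1 to Ccn2, taken after the values were seen, was 1.95, 1.87 and 1.98 in the WT libraries and 3.37, 3.35 and 3.19 in the KO libraries, with an exact two-sided permutation p of 0.1, the smallest that 3 against 3 libraries can give.

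Ccn4, or Wisp1, was found as a gene switched on by Wnt1 in mammary cells and is strong in mesenchyme and bone (ENSMUSG00000005124, chromosome 15, 66763169 to 66795050, plus strand). It measured 629, 712 and 691 CPM in WT and 387, 377 and 387 CPM in KO libraries. All KO values lay below the lowest WT value, that of WT1. At a log2 fold change of -0.82 (SE 0.07, adjusted p = 3.84e-33, edgeR with Benjamini-Hochberg adjustment) it fell furthest of the 10 genes, to 56.6% of WT. Its change lay between -0.87, without WT1, and -0.78, without WT2, and did not reach a 2-fold decrease in any of these fits.

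Ccn3 and Ccn5, which were weaker than Ccn2 and Ccn4, went the other way. Ccn3, or Nov, encodes a CCN protein that acts on cell adhesion and opposes several actions of CCN2 (ENSMUSG00000037362, chromosome 15, 54609098 to 54617435, plus strand). It had 78, 64 and 124 counts in WT and 251, 242 and 191 in KO, or 6.11, 4.56 and 6.66 CPM against 11.8, 14.5 and 11.9 CPM. The groups did not overlap, and the KO mean was 221% of the WT mean. The log2 fold change was 1.13 (SE 0.15, 95% interval 0.83 to 1.43, adjusted p = 1.34e-11, edgeR with Benjamini-Hochberg adjustment). The interval runs below the 2-fold threshold, and without WT2, the lowest WT library, the log2 change was 0.99 and Ccn3 was no longer a DEG.

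Ccn5, or Wisp2, encodes the short family member, which restrains growth of smooth muscle and other cells in culture (ENSMUSG00000027656, chromosome 2, 163662781 to 163675066, plus strand). WT libraries measured 8.46, 9.48 and 7.89 CPM and KO libraries 19.6, 17.0 and 18.9 CPM, from 108 to 147 counts in WT and from 283 to 416 in KO. No WT value came near a KO value. Its log2 fold change was 1.11 (SE 0.13, 95% interval 0.85 to 1.37, adjusted p = 3.01e-15, edgeR with Benjamini-Hochberg adjustment), and Ccn5 remained a DEG without each library in turn, at 1.04 to 1.18. Tested against a 2-fold change instead of 0 (glmTreat of edgeR), neither Ccn3 nor Ccn5 passed, and the smallest unadjusted p among the 10 genes was 0.071, that of Ccn3. Ccn5 lies 30.98 Mb and Thbs1 14.7 Mb from Mcm8 on chromosome 2, so the loss of Mcm8 and alleles linked to it in KO embryos cannot be told apart for these genes.

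With Ccn4 and Ccn2 lower and Ccn5 and Ccn3 higher, the make-up of the family differed between genotypes. Summed FPKM of the 6 CCN genes (the 5 above and Ccn6) was 343 ± 3.18 in WT and 274 ± 6.31 in KO (SD, n = 3). Ccn1 made up 43.1%, 39.5% and 41.0% of that sum in the WT libraries and 52.9%, 53.9% and 53.4% in the KO libraries, while its own level did not pass the test. Ccn4 went from a mean of 35.4% to 25.1% and Ccn2 from 21.3% to 16.2%. Ccn5 and Ccn3 together stayed a small part, with means of 1.30% and 0.585% in WT and 3.50% and 1.62% in KO. Taking genes in pairs that were chosen after their values were seen, the FPKM ratio of Ccn4 to Ccn5 went from 27.3 ± 2.57 to 7.19 ± 0.433 and that of Ccn2 to Ccn3 from 37.5 ± 7.84 to 10.1 ± 1.30. Ccn6 held 9 to 23 counts per library and did not pass the test (log2 fold change -0.14, SE 0.43).

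**Figure D2:**
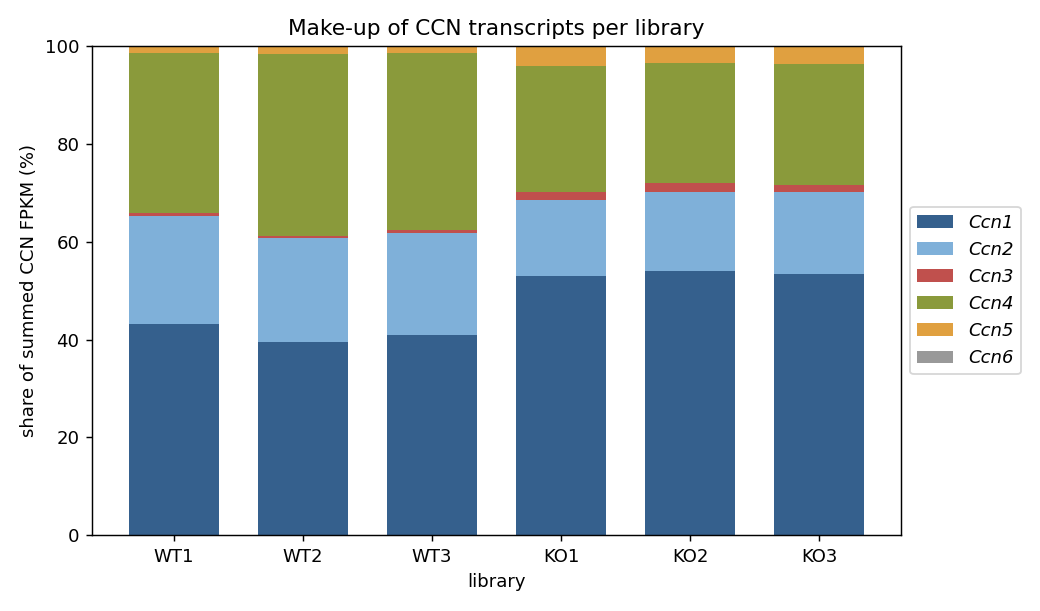
Share of the summed FPKM of the 6 CCN genes (vertical axis, percent) held by each gene in every WT and KO library. Ccn1 holds 39.5% to 43.1% in WT and 52.9% to 53.9% in KO, the segments of Ccn4 and Ccn2 are narrower in KO, and Ccn6 is too small to see.

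Thrombospondins are large calcium-binding glycoproteins, and THBS1 can release active TGF-beta from its latent complex and restrains angiogenesis through CD36 and CD47. Thbs1 (ENSMUSG00000040152, chromosome 2, 117942357 to 117957614, plus strand) measured 1764, 2047 and 2060.4 CPM in WT and 1776, 1773 and 1829 CPM in KO libraries. WT1 lay with the KO libraries and below WT2 and WT3, so the groups overlapped. The log2 fold change was -0.13 (SE 0.06, 95% interval -0.24 to -0.01, adjusted p = 0.211, edgeR with Benjamini-Hochberg adjustment). Without WT1 it was -0.20 and passed the test (adjusted p = 7.42e-09), and adjusted p over the other settings ran up to 1.00, the latter in the test against a 2-fold change.

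Thbs2, which shares the trimeric form and the type 1 repeats of Thbs1 but does not activate latent TGF-beta, did pass (ENSMUSG00000023885, chromosome 17, 14885762 to 14914497, minus strand). Its WT libraries measured 345, 389 and 382 CPM and its KO libraries 283, 291 and 289.5 CPM. All KO values were under the lowest WT value. The log2 fold change was -0.37 (SE 0.07, 95% interval -0.50 to -0.24, adjusted p = 1.70e-06, edgeR with Benjamini-Hochberg adjustment), with -0.42 without WT1 and -0.34 without WT2 as the extremes. The FPKM ratio of Thbs1 to Thbs2 was 5.89, 6.07 and 6.21 in WT and 7.24, 7.02 and 7.29 in KO libraries. Of the other thrombospondins, Thbs3 was higher in KO (80.0 to 82.7 CPM in WT, 96.5 to 101 CPM in KO, log2 fold change 0.28, adjusted p = 0.00463, edgeR with Benjamini-Hochberg adjustment), but did not pass without KO1 or without KO2. Thbs4 and Comp were each under 1 CPM in every library and did not pass by edgeR with all libraries. Comp, at 0, 0 and 4 counts in WT and 5, 11 and 6 in KO, was called higher by limma-voom and by edgeR without WT3.

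Periostin is a fasciclin-domain protein that links collagen, fibronectin and tenascin-C and marks activated fibroblasts. Postn (ENSMUSG00000027750, chromosome 3, 54268530 to 54298458, plus strand) measured 1167, 1214 and 1144 CPM in WT and 858, 867 and 850.0 CPM in KO libraries. Libraries of a genotype lay close together, with a coefficient of variation of 3.04% in WT and 0.963% in KO, and the groups were far apart. Its log2 fold change was -0.45 (SE 0.06, 95% interval -0.58 to -0.33, adjusted p = 2.57e-11, edgeR with Benjamini-Hochberg adjustment), or 73.0% of WT. Tgfbi, the other fasciclin-domain gene of this kind, went up instead, from 80.7 ± 5.55 CPM in WT to 109 ± 4.60 CPM in KO (SD, n = 3, log2 fold change 0.43, adjusted p = 5.81e-07).

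SPARC is a collagen-binding protein, also known as osteonectin, that assists procollagen processing. Sparc (ENSMUSG00000018593, chromosome 11, 55285326 to 55314009, minus strand) measured 1321, 1243 and 1328 CPM in WT and 1419, 1404 and 1428 CPM in KO libraries. All KO values were above all WT values, by a narrow margin. Its log2 fold change of 0.13 (SE 0.06, 95% interval 0.01 to 0.25, adjusted p = 0.229, edgeR with Benjamini-Hochberg adjustment) did not pass. It passed without WT1 (adjusted p = 0.000384) and with limma-voom (adjusted p = 0.0185), and in no other setting, where adjusted p ran up to 1.00.

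Tenascin-C is a large glycoprotein of embryonic and wounded tissue that weakens adhesion of cells to fibronectin. Tnc (ENSMUSG00000028364, chromosome 4, 63878022 to 63965252, minus strand) measured 1209, 1446 and 1505 CPM in WT and 1778, 1781 and 1817 CPM in KO libraries. WT1 was the lowest and the WT libraries were widely spread, with a coefficient of variation of 11.3% against 1.20% in KO, but no WT value reached the KO values. The log2 fold change was 0.37 (SE 0.06, 95% interval 0.25 to 0.49, adjusted p = 4.11e-08, edgeR with Benjamini-Hochberg adjustment). Without WT1 it was 0.28 and still passed (adjusted p = 1.55e-16). That fit took the spread from a new trend over all genes, so its adjusted p does not measure the spread of Tnc alone. With limma on log2(FPKM + 1) Tnc did not pass (adjusted p = 0.103). The matrix gene Fn1 had a low value in the same library, with 4958 CPM in WT1 against 7393 and 7483 CPM in WT2 and WT3, and so did the receptor gene Lrp1, with 1292 CPM against 2000.3 and 2163 CPM. What set WT1 apart was not tested. The FPKM ratio of Tnc to Postn, a pair chosen after the values were seen, was 1.16, 1.33 and 1.47 in WT and 2.32, 2.30 and 2.39 in KO libraries.

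**Figure D3:**
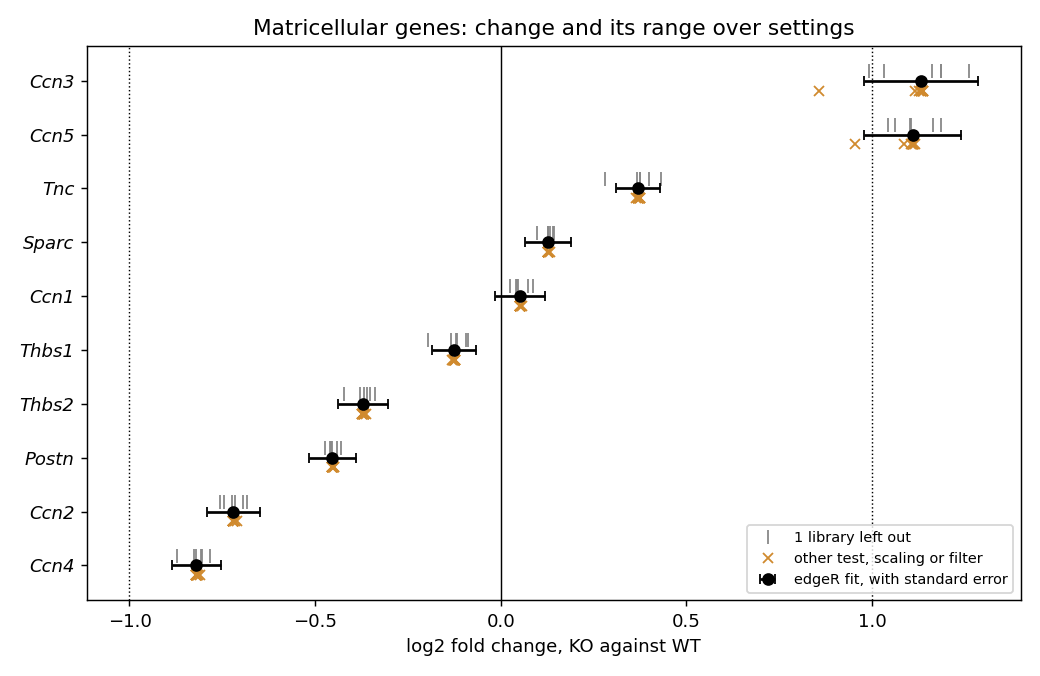
Fitted log2 fold change (KO against WT) of each matricellular gene from the edgeR fit, with its standard error (points and bars), its value with 1 library left out (ticks) and its value under another test, scaling or filter (crosses). Crosses include limma on log2(FPKM + 1), a scale that shrinks the change of weak genes such as Ccn3, and the dotted lines mark 2-fold changes, which Ccn3 and Ccn5 alone pass in the main fit.

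An antisense or overlapping gene was annotated for 3 of the 10 genes, in each case a long non-coding RNA on the opposite strand. These were Gm15270 at Ccn2 (0 to 5 counts per library), Gm29233 at Thbs1 (0 counts in every library) and 8030451A03Rik at Tnc (31 to 94 counts). The kit and counting were not stated to keep strand, so reads of such partners cannot be told apart, but their counts were small beside the 15430 or more counts of Tnc in each library.

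Promoter sequence from RefSeq (build GRCm38.p6, 250 bases before to 50 after each start) was at hand for 5 of the 10 genes: Ccn1, Postn, Sparc, Thbs2 and Tnc, with 7 starts in all. Ccn2, Ccn3, Ccn4, Ccn5 and Thbs1 had no entry. The TEAD motif GGAATG was sought on both strands and occurred in 1 of the 7, that of Ccn1, against 14.7% of all 32851 promoters in the table. The AP-1 motif TGANTCA (7.81% of all promoters), the paired SMAD motif GTCTAGAC (0.213%) and the CArG box (1.63%) occurred in none of the 7 on either strand. A TATAA on the sense strand between 20 and 40 bases before the start, sought after the sequences were seen, occurred in 3 of the 7 (Ccn1 and 1 start each of Postn and Tnc) and in 3.52% of all promoters. The 250 bases before the start are shown for Ccn1 (window chr3:145649936-145650235, minus strand), which did not pass the test. They are also shown for the second listed start of Postn (window chr3:54360857-54361156, plus strand), which fell. Both carry such matches. The second listed start of Tnc, with TATAA 27 bases before it, does so too but is not shown. Capitals mark CATTCC, the reverse complement of the TEAD motif, which begins 103 bases before the start of Ccn1, and TATAA, which begins 25 and 26 bases before the starts of Ccn1 and Postn. A match is a description of the letters and not evidence of binding.
Ccn1: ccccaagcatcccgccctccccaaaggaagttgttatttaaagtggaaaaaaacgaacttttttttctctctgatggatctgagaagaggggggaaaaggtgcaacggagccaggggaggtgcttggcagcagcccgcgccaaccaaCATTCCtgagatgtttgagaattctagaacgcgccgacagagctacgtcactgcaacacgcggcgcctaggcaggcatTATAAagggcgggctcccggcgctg
Postn: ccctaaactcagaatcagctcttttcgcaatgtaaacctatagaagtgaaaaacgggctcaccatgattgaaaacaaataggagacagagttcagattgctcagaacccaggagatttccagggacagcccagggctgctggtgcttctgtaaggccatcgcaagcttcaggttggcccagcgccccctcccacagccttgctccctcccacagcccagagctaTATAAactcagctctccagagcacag

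Further genes of the pathway were read from 15 lists of 150 genes in all. Counts are of genes that passed the test at an adjusted p-value below 0.05 in the same edgeR fit. Over all genes tested, weak ones included, 4.97% were higher and 4.03% lower. Among genes at least as abundant as the lowest of the matricellular genes, 8.46% were higher and 8.79% lower. Among genes with a mean of at least 100 CPM, 17.7% passed in either direction. No list was compared with genes of like abundance, so how unusual its counts are was not tested. Among SPARC relatives, 2 of 7 were higher, both as DEGs, and 1 was lower. Smoc2, which encodes a calcium-binding modular SPARC relative, went from 6.71 to 7.41 CPM in WT to 17.0 to 17.3 CPM in KO, at a log2 fold change of 1.28. The testican gene Spock3 rose by 1.57 from low values (0.483 to 2.21 CPM in WT, 3.61 to 4.12 CPM in KO). Sparcl1, or hevin, the closest relative of Sparc, measured 2.74 to 3.35 CPM in WT and 0.812 to 1.09 CPM in KO, a log2 fold change of -1.71. Fstl1, the most abundant relative, did not pass by edgeR with all libraries (0.16, adjusted p = 0.0940), but passed by edgeR without WT1, by limma-voom and by DESeq2. Of the other tenascins, Tnn, Tnxb and Tnr, none passed by edgeR, limma-voom or DESeq2, where 1 was higher and 1 lower at an unadjusted p below 0.05 in edgeR, and 1 was lower without WT2.

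Of 6 other matricellular genes tested, 3 were higher and 1 lower in KO. Osteopontin (Spp1), a secreted ligand of integrins, measured 237, 207 and 194 CPM in WT and 340.2, 335 and 347 CPM in KO, at a log2 fold change of 0.68 (SE 0.07). Emilin2 and Edil3, which encode an elastin-microfibril interfacer and an integrin ligand, were higher by 0.73 and 0.71. Fibulin-5 (Fbln5), an organizer of elastic fibres that binds integrins, measured 611, 621 and 599.9 CPM in WT and 334, 342 and 338 CPM in KO, a log2 fold change of -0.85 (SE 0.07) and about the size of that of Ccn4. These calls all remained without each library in turn. As among the 10 genes, rises and falls occurred side by side.

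Receptors of these proteins changed in both directions, with 5 of 16 higher and 5 lower. Integrin chains were among the lower ones: Itgav, the alpha-v chain that pairs with several beta chains to bind CCN proteins and periostin (422, 459 and 443 CPM in WT, 363, 356 and 347 CPM in KO, log2 fold change -0.31), Itgb1 (-0.19) and Itga8 (-1.22, from 3.92 to 7.77 CPM in WT to 2.12 to 2.83 CPM in KO). Higher as DEGs were Itga6, a laminin and CCN1 receptor chain (33.5, 36.7 and 34.5 CPM in WT, 71.1, 69.0 and 70.9 CPM in KO, log2 fold change 1.01), Itgb8, which serves to activate latent TGF-beta (1.71), and syndecan-4 (Sdc4), a heparan sulfate proteoglycan of focal adhesions (60.8, 49.4 and 52.2 CPM in WT, 118, 124 and 116 CPM in KO, log2 fold change 1.14). Sdc4 lies 31.58 Mb from Mcm8 on chromosome 2, so the limit of linked alleles given for Ccn5 holds for it too. Itgav (49.02 Mb), Itga6 (60.97 Mb) and Itga8 (120.4 Mb) lie farther from Mcm8 on the same chromosome, and the part of linked alleles in their values was not tested. Itga6 passed in every fit without a library, but at 0.99 without WT1 it was no longer a DEG. Lrp1 (0.26) passed with all libraries but not without WT1, Itgb1 not without any single KO library, and the collagen receptor Ddr2 (-0.19), of these fits, passed in that without WT1 only. Without any 1 of the KO libraries, 3 receptors were lower.

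Among 11 genes whose products process the matricellular proteins or join them in the matrix, 2 were higher and 4 lower. Adamts1, a protease that cleaves thrombospondins and proteoglycans, fell by 0.77 on the log2 scale, from 478, 520.1 and 529.5 CPM in WT to 298, 303 and 299 CPM in KO. Lox, the collagen cross-linking oxidase that periostin and BMP1 help to activate, measured -0.20 and did not pass without WT2, KO1 or KO3. Fn1 was higher by 0.29 with WT1 and by 0.12 without it, and passed in both fits. Mmp14 did not pass (-0.08). Without WT2 or without KO3, 2 genes of this list were lower.

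The regulators of the CCN genes were read next. Of 15 YAP and TEAD pathway genes, Tead2 was higher and 3 were lower, but each of the 3 lost its call in at least 1 fit without a library, and the count of lower genes ran from 0 (without KO1 or without KO2) to 6 (without WT1). Yap1 (-0.14, adjusted p = 0.250), Tead1 (-0.12) and Mob1a (-0.17) did not pass, but all were lower in the fit without WT1. Of 20 further YAP target genes, 6 were higher and 3 lower, with a median log2 fold change of 0.10. Of the 6 higher ones, Nt5e did not pass without WT1, WT3, KO1, KO2 or KO3, and Arhgef17 did not pass without KO1. By limma-voom 4 were higher. The 3 lower ones were Ccdc80 (342, 361 and 355 CPM in WT, 218, 224 and 216.5 CPM in KO, log2 fold change -0.68), Rbms3 (-0.53) and Lats2 (-0.43), and each remained lower without each library in turn. Axl (0.00) and Amotl2 (0.10) did not pass, nor did Myof (-0.16) and Asap1 (-0.14), which were lower in the fit without WT1. The only DEG was Foxf2 (1.65), at 0.285 to 1.07 CPM (4 to 20 counts) in WT and 1.23 to 2.83 CPM in KO. Its log2 fold change was 1.30 without WT2 and 2.25 without WT3. Without WT1, 5 of these targets were lower.

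A list of 12 genes that holds Srf, Mrtfa, Mrtfb and genes that respond to them gave 0 higher and 3 lower by edgeR, with 2 higher at an unadjusted p below 0.05. By limma-voom 1 was higher and 1 lower, and by DESeq2 0 were higher and 2 lower. Smooth muscle actin (Acta2), a mark of contractile fibroblasts, measured 1772, 1602 and 1592 CPM in WT and 1243, 1218 and 1274 CPM in KO, a log2 fold change of -0.41, whereas Tpm1 (0.14), Vcl (0.04) and Tpm2 (0.10) did not pass. Acta2 was the only one lower without any 1 of the KO libraries, and without WT1 2 genes of this list were higher. Of 15 immediate early genes, the first to answer serum, 8 were higher and 1 lower by edgeR, against 6 higher and 1 lower by limma-voom and by DESeq2 each. Egr1 measured 72.3, 64.9 and 68.9 CPM in WT and 131, 144 and 149.9 CPM in KO (log2 fold change 1.04), Egr3 rose by 1.85 and Egr2 by 1.09 from low values, Junb rose by 0.88, and Myc was lower (-0.32). Jun (0.00) and Klf6 (-0.13) did not pass, and 6 of the 8 that were higher remained so without each library in turn. The other two were Fos, which did not pass without WT2, WT3, KO2 or KO3, and Klf2, which did not pass without WT3 or KO2.

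In the TGF-beta list of 16 genes, 4 were higher, and each of these calls remained without each library in turn. Latent TGF-beta binding proteins store the ligand in the matrix, and Ltbp2 (29.3, 30.4 and 33.0 CPM in WT, 101, 99.2 and 110.5 CPM in KO, log2 fold change 1.74) and Ltbp1 (0.62) were higher. The receptor gene Tgfbr2 was higher by 0.31. Of 11 Wnt target genes 3 were higher and 3 lower: the feedback genes Axin2 (1.76) and Rnf43 (1.47) and the factor gene Tcf7 (1.36) rose from 3.76 CPM or less in WT. The receptor gene Lgr5 fell by 1.45, from 49.8, 62.2 and 58.1 CPM to 22.5, 18.9 and 20.7 CPM, and the feedback inhibitor genes Nkd2 (-0.91) and Apcdd1 (-0.39) were lower too. Ccn4 and the Wnt list therefore showed no single direction. Of 9 matrix collagens, Col1a1 (0.20) and Col3a1 (0.29) were higher and Col5a2 (-0.34) and Col6a3 (-0.20) lower. Without WT1, 5 collagens were lower, and without any other library 1.

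**Figure D4:**
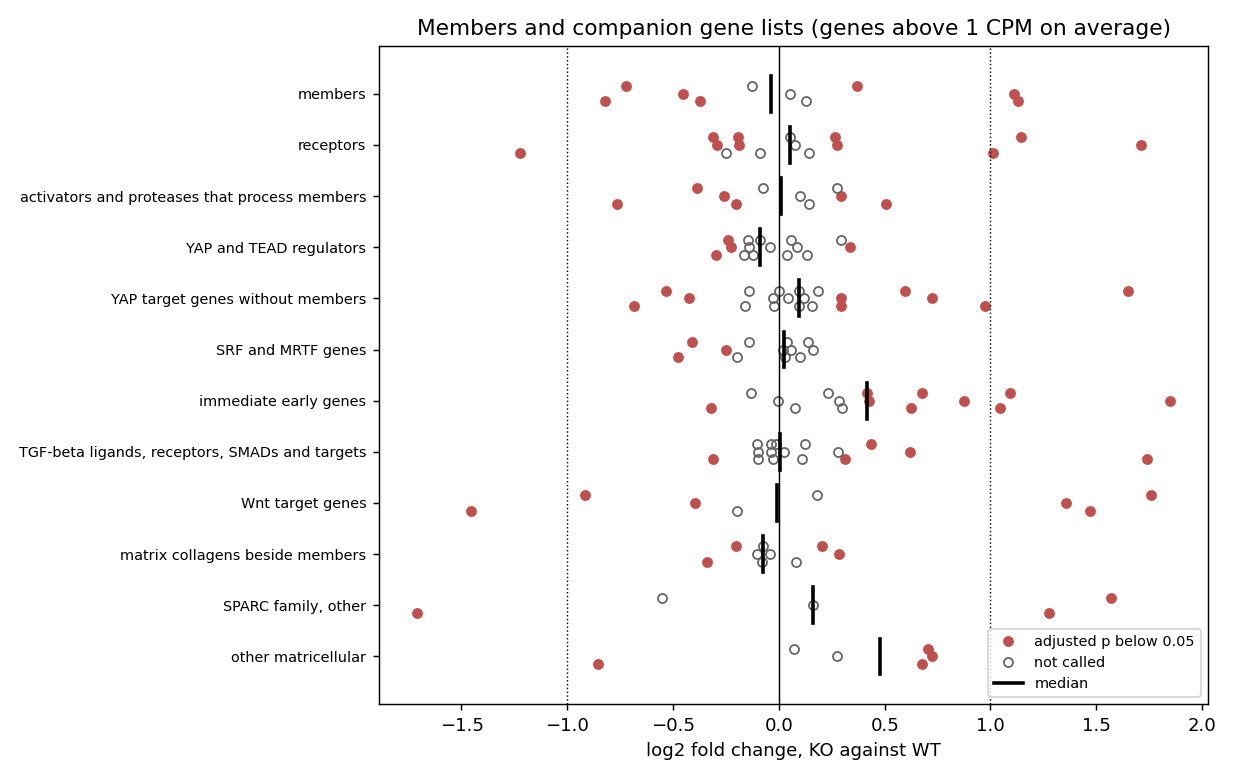
Fitted log2 fold change (KO against WT, edgeR) of the matricellular genes (labelled members) and of genes above 1 CPM on average in the companion lists, 1 point per gene, filled where the adjusted p-value is below 0.05, with the median of each list as a bar and 2-fold changes as dotted lines (lists with at most 1 such gene are not drawn). Most lists spread to both sides of 0, and the immediate early genes lie mostly above it, at a median of 0.42.

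Markers of other cell types moved with genotype at low levels. Summed CPM of 6 epithelial markers was 3.42 to 5.17 in WT and 12.3 to 13.3 in KO (3 higher, none at 0 in all libraries), and that of 5 mesothelial markers 2.95 to 3.35 in WT and 43.2 to 48.7 in KO, nearly all from Msln, with Lrrn4 and Muc16 at 0. For 7 cartilage and bone markers it was 14.4 to 16.7 in WT and 36.2 to 37.0 in KO, with Sox9 and Acan higher and Matn1 and Ibsp at 0, and for 4 tendon markers 10.8 to 13.6 in WT and 23.3 to 25.1 in KO, with Scx higher. Neural and glial markers summed to 25.4 to 28.5 CPM in WT and 38.8 to 39.98 CPM in KO, with Tubb3 higher and Sox10 at 0. Endothelial, immune and skeletal muscle markers summed to at most 4.33 CPM in any library and none passed. Of 9 fibroblast markers, 2 were higher (Col1a1 and Col3a1) and 3 lower: Thy1 (log2 fold change -1.03), Pdgfrb (-0.74) and Vim (-0.19). The part of these shifts in the values of the 10 genes was not tested.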

How the data were processed

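The NEBNext Ultra kit was used for the libraries, which were read as pairs. Per the submitters' processing notes and the study's methods, reads were trimmed with fastp, aligned with HISAT2 2.0.5 and counted per gene with featureCounts 1.5.0-p3. The authors deposited raw counts (whole numbers, 1 column per library) and FPKM values for the same genes. Deposited coordinates are those of Ensembl 106 (GRCm39), although the labels name GRCm38 and mm10. FPKM was proportional to counts over gene length, with library factors 0.990 to 1.02 times the total counts. No column was left out.

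Counts were tested with edgeR 4.0.16 (quasi-likelihood, TMM factors 0.980 to 1.01, R 4.3.3) on genes with FPKM above 0 in at least 1 library, KO against WT without covariates, with Benjamini-Hochberg adjustment. DEGs were called at an adjusted p below 0.05 and a log2 fold change over 1 in size. Prior degrees of freedom were infinite, so each gene's spread came from the trend, which makes p-values too small for genes of larger spread. This held in each fit without a library too, where the trend was fitted anew. Adjusted p-values and calls of those fits thus change with that trend as well as with the gene. CPM used TMM-adjusted totals, values after ± are SD over 3 libraries, and 95% intervals are the log2 fold change plus or minus normal quantiles of its SE. Rows without a gene name held 0.105% of counts. The fit was run on simulated counts whose spread came from the same trend and whose changes were all larger than 2-fold. Genes of larger spread and smaller changes were not checked.

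The members and lists were chosen with earlier results of these data known. Of the TGF-beta list, 1 gene is not reported here. Of the lists, DEGs and at most 4 of the most abundant other genes were to be named; Edil3, Ddr2, Itgb1, Lox, Col3a1, Col6a3, Rnf43 and others named by a count or a lost call were added after their values were seen. Same-numbered libraries deviated from their group means with correlations of -0.025, -0.016 and 0.037 over 14332 genes. Pairing by number was thus not seen, but values this small cannot exclude a weak one. Alternatives covered DESeq2 1.42.0, limma-voom and limma (3.58.1) on log2(FPKM + 1) or log2(FPKM + 0.1), a test against a 2-fold change (glmTreat), robust shrinkage, RLE size factors, other filters, the replicate number as a block, and each library left out.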

Additional observations from a re-analysis of the deposited data

How the results depend on the processing

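No gene of the 10 changed direction under any of the 17 other settings. DESeq2, robust shrinkage, RLE size factors, filterByExpr and the other filters left 3 of them higher and 4 lower at an adjusted p-value below 0.05, and 2 higher as DEGs, and limma-voom added Sparc to those higher. Tested against a 2-fold change (glmTreat), 157 genes were higher and 43 lower, and of the 10 genes 0 were higher. With limma on log2(FPKM + 1), 0 of the 10 were DEGs, since that scale shrinks changes of weak genes, and Tnc did not pass, nor with limma on log2(FPKM + 0.1). Without each library in turn, genes higher as DEGs among the 10 numbered 1 (without WT2) to 2, and genes of the whole table lower by adjusted p numbered 645 (without KO3) to 1620 (without WT1), with 667 without KO1. Thbs1 and Sparc passed without WT1. With a replicate block 445 genes were higher and 158 lower as DEGs, and 1330 and 1035 by adjusted p, and no call among the 10 changed. Libraries with more counts measure weak genes more closely, and Ccn3, at 64 to 251 counts, is the least precise of the 10.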
